A study of Mus musculus with 3 samples.

Results

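Fibroblast growth factors (FGFs) and their receptors were followed through the stromal cells of day 5 implants by 9 genes: the ligands *Fgf2*, *Fgf7*, *Fgf10* and *Fgf18*, the receptor tyrosine kinases *Fgfr1*, *Fgfr2*, *Fgfr3* and *Fgfr4*, and the receptor-like gene *Fgfrl1*. They were chosen by symbol among the 31053 genes of the count files, and all 9 were found. Their unique molecular identifiers (UMIs, which count captured RNA molecules) were summed over stromal cells, taken as cells in which *Col1a1*, *Col1a2*, *Col3a1*, *Dcn* and *Lum* together made up at least 1% of UMIs. The level of a gene is given in CPM, its UMIs per 1000000 UMIs of the same cells.

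Each of 3 conditions was 1 droplet library from dispase-released cells of masses that female CD-1 mice of 6 to 8 weeks had carried under the abdominal skin until day 5. The Matrigel-only mice were implanted with the basement membrane gel alone and were given nothing by mouth. The Vehicle mice carried Matrigel with rhBMP2, a growth factor under which cartilage and then bone form outside the skeleton (heterotopic ossification), and were given corn oil/DMSO. The Palo mice carried the same rhBMP2/Matrigel mixture and were given palovarotene, an agonist of the retinoic acid receptor gamma, at 4 mg/kg daily. Vehicle against Matrigel-only addresses the response to BMP2, and Vehicle against Palo the response to the drug under BMP2. Matrigel-only differed from both other groups in the absence of rhBMP2 and also of any oral dosing, and these cannot be told apart. The masses of a group were pooled into its library, so cells are not replicates of a condition and no test between conditions was possible. The 95% intervals given below are exact Poisson (CPM), Clopper-Pearson (shares of cells) or conditional binomial (ratios) intervals, and all cover counting error only. For shares of cells thinned to equal depth, the Clopper-Pearson formula was applied to an expected number of cells, so those intervals are approximate.

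FGFs are secreted proteins that bind their receptors together with heparan sulfate chains, and receptor activation runs largely through the Ras and MAP kinase cascade, which also switches on its own inhibitors. In limb and cartilage, FGFR1 is the main receptor of loose mesenchyme, FGFR2 is found in condensing mesenchyme, and FGFR3 marks chondrocytes, where its activity restrains growth. FGF18 is a ligand of FGFR3 in the growth plate, FGF7 and FGF10 act mainly on an epithelial splice form of FGFR2, and FGFRL1 binds FGFs but lacks the tyrosine kinase domain.

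The libraries held 46901673, 46317250 and 44252421 UMIs for Palo, Vehicle and Matrigel-only, on 7905, 6065 and 9249 barcodes. Cells were kept at 200 to 6000 genes with at most 5% of UMIs from mitochondrial genes. Of these, 2085 of 8728 Matrigel-only cells, 1373 of 5478 Vehicle cells and 1184 of 7297 Palo cells were stromal. Vehicle stromal cells were the deepest, with a median of 17114 UMIs against 9082 in Matrigel-only and 12955 in Palo. Few cells lay near the 1% limit, with 10 to 56 cells of a library between 0.5% and 1%. The lowest cells inside it had 1.01% to 1.03% and the highest outside 0.918% to 0.996%. All 7 stromal markers were detected in each library. Of these, 5 are the genes of the stromal rule itself, so their detection is no separate evidence. All 7 were also detected in macrophage-marker cells, where they summed to 370 to 510 CPM. These cells were chosen by at least 0.5% of UMIs from 7 macrophage markers and under 0.2% from the stromal genes of the rule. Their low stromal sum and their high macrophage sum, given next, largely follow from that choice and are no separate evidence. The 7 macrophage markers summed to 470, 143 and 319 CPM in the stromal cells of Matrigel-only, Vehicle and Palo against 14317 to 16609 CPM in macrophage-marker cells, and the chondrocyte list to 1.75, 3773 and 3.09 CPM. Endothelial markers summed to 3.65 to 18.7 CPM and pericyte markers to 47.0 to 94.9 CPM. Muscle markers summed to 2.99, 21.1 and 8.97 CPM in Matrigel-only, Vehicle and Palo. Keratinocyte markers summed to 18.8 to 31.1 CPM, with *Krt5* at 0 in each library. Schwann cell markers summed to 4.93 to 23.7 CPM, with the factor *Sox10* at 0 in each library. No doublet caller was run. Between 11 and 21 barcodes were shared by a pair of libraries, 1 of them stromal in both.

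Stromal cells were split by detection of 3 genes in a fixed order. Acan+ cells had a UMI of *Acan*, the cartilage proteoglycan aggrecan. Sox9+ cells had *Sox9*, the chondrogenic transcription factor, without *Acan*. Pi16+ cells had *Pi16*, a marker of fibroblast progenitors, without either, and triple-negative cells had none of the 3. Acan+ cells numbered 779 in Vehicle, 1 in Matrigel-only and 4 in Palo, so that they can be described in the Vehicle library alone. The Sox9+, Pi16+ and triple-negative classes held 493, 1012 and 579 Matrigel-only cells, 391, 80 and 123 Vehicle cells and 405, 312 and 463 Palo cells. Detection of a class gene depends on depth, and the Vehicle cells were the deepest.

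Under BMP2 without the drug, *Fgfr3*, *Fgfrl1* and *Fgfr2* in Vehicle stromal cells exceeded both other libraries by at least 4-fold. *Fgfr1*, the most abundant receptor, was instead lowest in Vehicle (ratio to Matrigel-only 0.636, 0.611 to 0.663, and to Palo 0.766, 0.732 to 0.801). Over all stromal cells the ligands were highest in Matrigel-only, but within Pi16+ cells the levels of *Fgf7* and *Fgf10* were higher in Vehicle than in Matrigel-only, without being called at 2-fold by the rule given next. With palovarotene, over all stromal cells, the levels of the 3 higher receptors lay near those of Matrigel alone. The ligands there lay between the other libraries or, for *Fgf10*, near Vehicle. Within Sox9+ cells *Fgfrl1* and *Fgfr3* were lower in Palo than in Matrigel-only, *Fgfr3* on 2 against 11 UMIs. *Fgfr1*, *Fgf2*, *Fgf7*, *Fgf10* and *Fgf18* were lower there too, and 0 of the 7 members counted were called, against 1.72% of all genes. In triple-negative cells each ligand had its lowest level in Palo, with *Fgf10* and *Fgf18* within counting error of Vehicle. The bulk of the Vehicle excess of the 3 receptors was carried by the Acan+ cells.

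**Figure D1:**
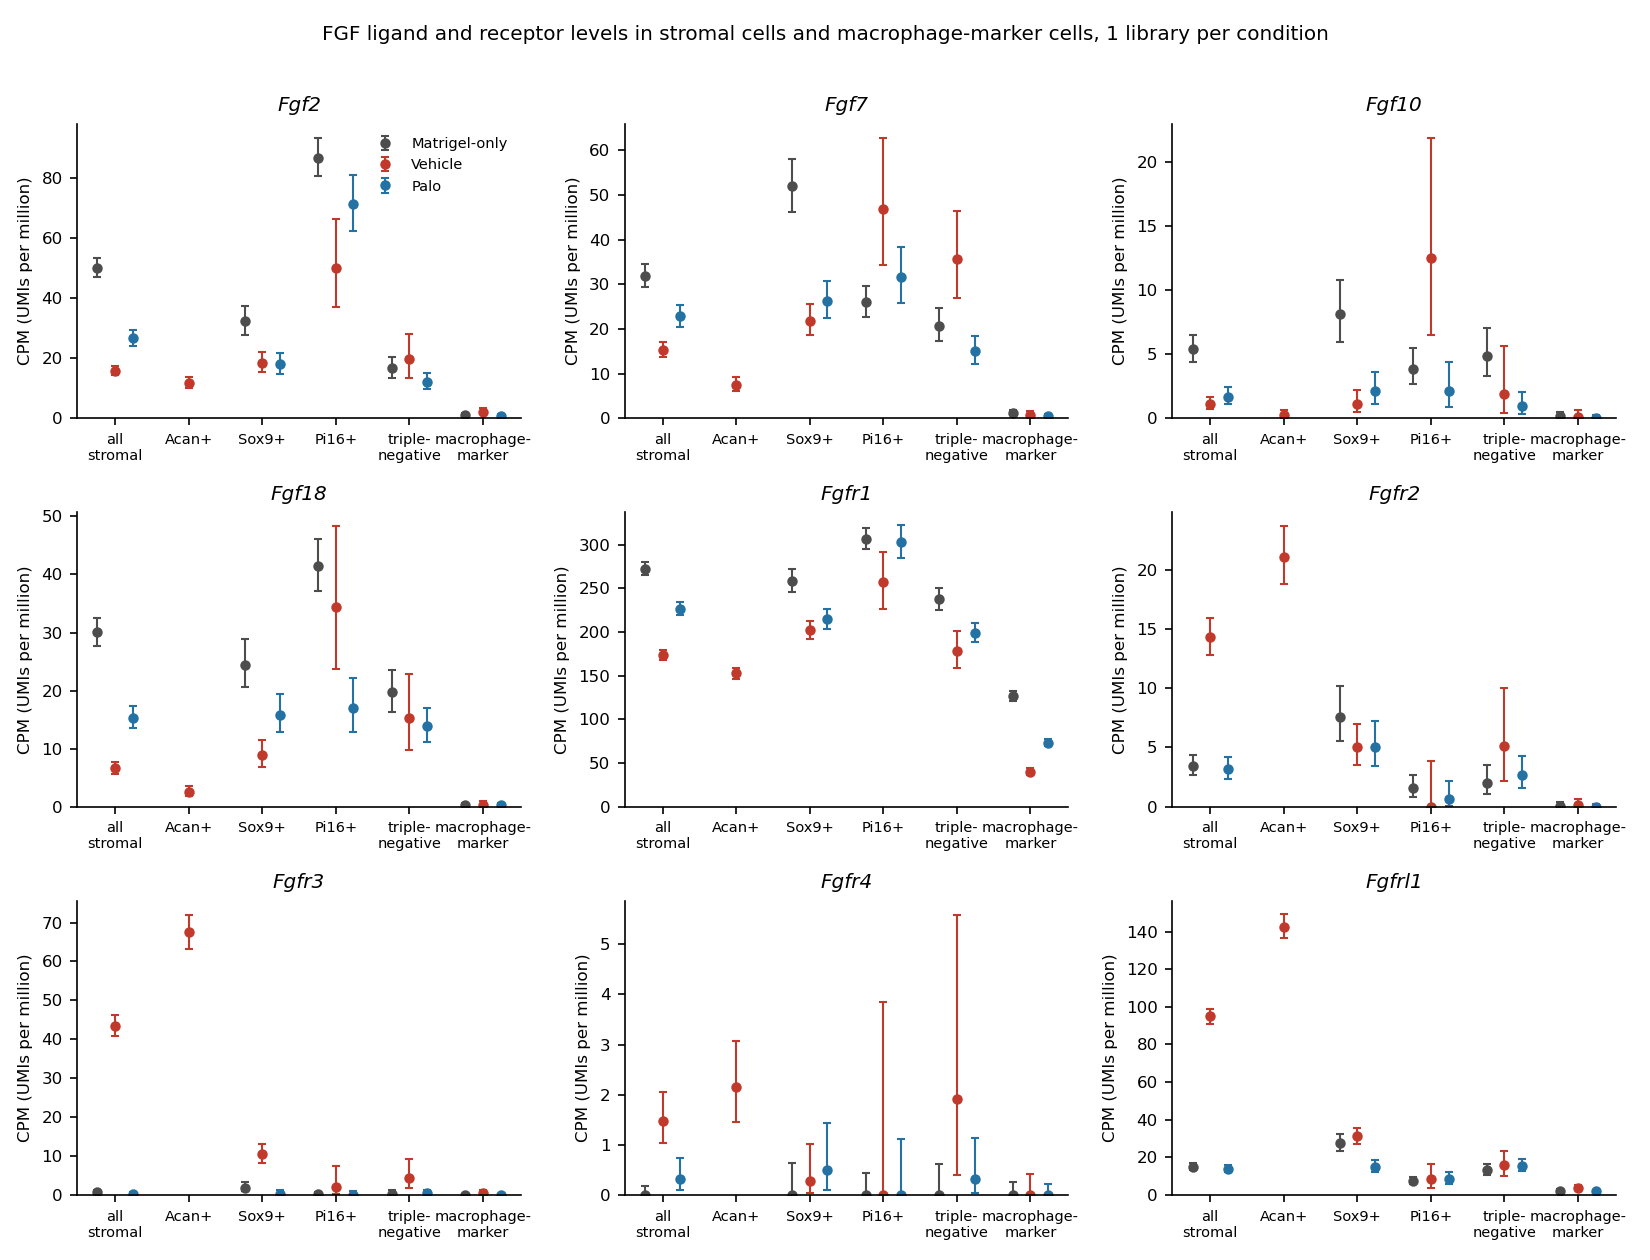
Level of each gene in CPM (linear axes from 0) in all stromal cells, in the stromal classes and in macrophage-marker cells of the Matrigel-only, Vehicle and Palo libraries. Points are 1 library each, bars are exact Poisson 95% intervals and classes under 50 cells are not drawn. *Fgfr3* stood at 67.6 CPM and *Fgfrl1* at 143 CPM in the Vehicle Acan+ cells, above every other class drawn, and *Fgf2* was highest in Pi16+ cells of each library.

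A gene was counted in a comparison when it reached 5 CPM in one of the libraries, and it was called when its ratio, with 5 CPM added to both sides, was at least 2-fold. In Vehicle over Matrigel-only, 8 members were counted and 5 called, 3 higher (*Fgfr2*, *Fgfr3*, *Fgfrl1*) and 2 lower (*Fgf2*, *Fgf18*), where 10.7% of all 10755 genes counted were called (3.68% higher and 7.04% lower). In Vehicle over Palo, 7 were counted and the same 3 receptors were called higher with no member lower, against 8.14% of all genes called (3.73% higher and 4.4% lower). In Palo over Matrigel-only, 6 were counted and 0 called, against 1.22% of all genes. The Vehicle comparisons share the Vehicle library, so the receptors' excess in both rests on the same Vehicle cells.

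**Figure D2:**
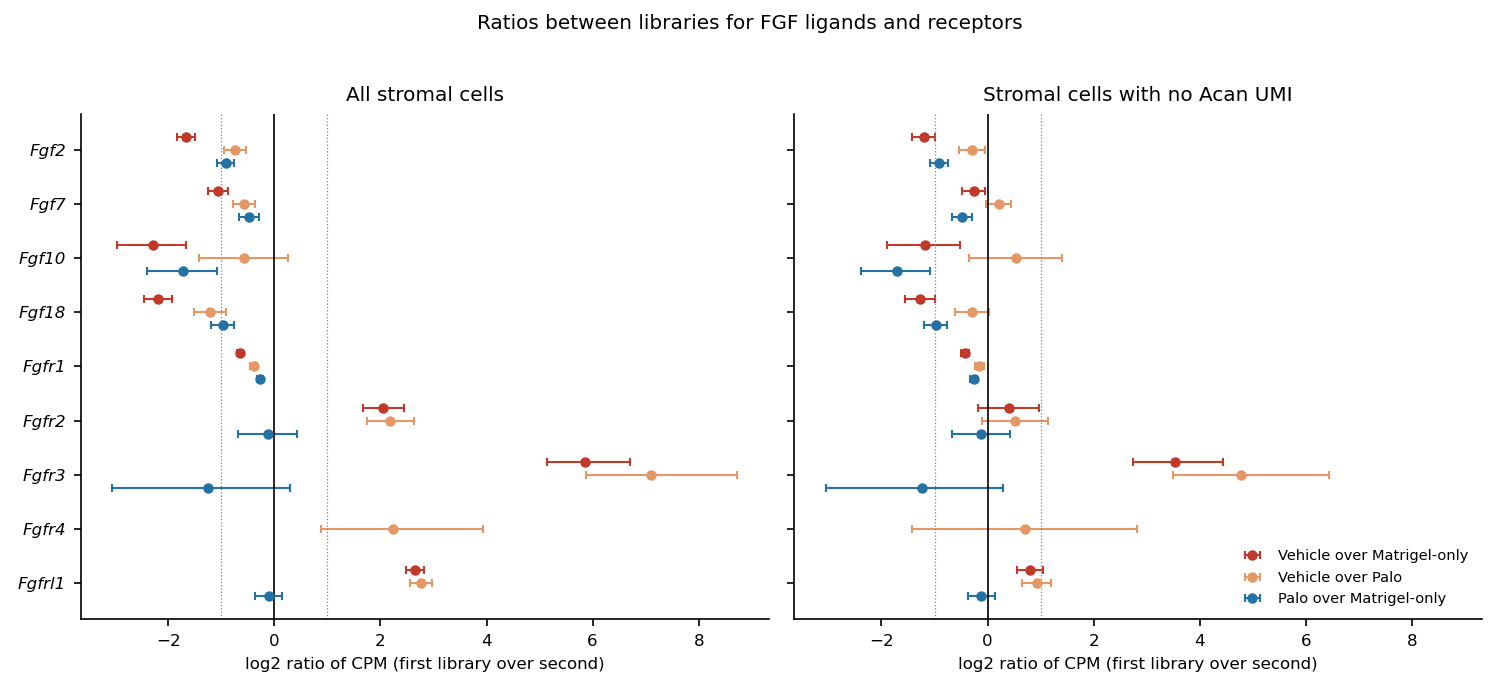
Log2 ratio of CPM between libraries for each gene, in all stromal cells (left) and in stromal cells with no *Acan* UMI (right). Points are ratios without the 5 CPM added for calls, bars are conditional binomial 95% intervals and dotted lines mark 2-fold. Points past these lines were therefore not all called. *Fgfr4* is drawn only against Palo because it was at 0 in Matrigel-only. *Fgfr3* kept a log2 ratio of 3.54 over Matrigel-only without the Acan+ cells, while that of *Fgfr2* was 0.40.

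*Fgfr3* (ENSMUSG00000054252, plus strand, chr5:33721674-33737068 in the GENCODE vM21 annotation of mm10) encodes the receptor kinase of chondrocytes. The Matrigel-only stromal cells had 15 UMIs of it (0.748 CPM), those of Vehicle 1025 UMIs (43.4 CPM, 40.8 to 46.2) and those of Palo 5 UMIs (0.316 CPM). Vehicle alone was high, and the intervals of the other libraries overlapped each other. The ratio of Vehicle to Matrigel-only was 58.1 (35.0 to 104) and that of Vehicle to Palo 138 (58.8 to 425). Within Vehicle, 941 of the 1025 UMIs (91.8%) came from Acan+ cells, which stood at 67.6 CPM. The Sox9+ cells followed at 10.5 CPM (8.26 to 13.2), while Pi16+ cells had 2 UMIs and triple-negative cells 7. Acan+ exceeded Sox9+ cells 6.43-fold (5.08 to 8.25).

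*Fgfr3* was also higher outside the Acan+ cells, in cells where the chondrocyte list was higher as well. Sox9+ cells had 11 UMIs (1.90 CPM) in the Matrigel-only library, 75 (10.5 CPM) in Vehicle and 2 (0.327 CPM) in Palo. Vehicle Sox9+ cells exceeded those of Matrigel-only 5.54-fold (2.92 to 11.6) and those of Palo 32.1-fold (8.59 to 270). Palo Sox9+ cells were at 0.172 of those of Matrigel-only (0.0186 to 0.790), on few UMIs. In the same cells the 7 chondrocyte markers summed to 2.76, 78.4 and 3.60 CPM in Matrigel-only, Vehicle and Palo, and *Col2a1* had 0, 202 and 0 UMIs. The part of these marker transcripts in the *Fgfr3* difference was not tested. In these cells 8 members were counted over Matrigel-only, with *Fgfr3* called higher and *Fgf7*, *Fgf10* and *Fgf18* lower, against 6.35% of all genes called. Over Palo, *Fgfr3* alone of 7 was called, against 5.59%, and in Palo over Matrigel-only 0 of 7 were called, against 1.72%. With every Acan+ cell left out, an alternative chosen after seeing the data, *Fgfr3* was the 1 member still called higher, at 11.6-fold (6.65 to 21.7) over Matrigel-only and 27.4-fold (11.3 to 86.5) over Palo. *Fgf2* and *Fgf18* were the 2 members still called lower than in Matrigel-only. Without Acan+ cells 7 and 6 members were counted, and 7.28% and 5.05% of all genes were called.

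When each cell was thinned to 3000 UMIs, which left 1883, 1304 and 1131 stromal cells, 9.96% (8.39 to 11.7) of Vehicle stromal cells had a UMI of *Fgfr3*, against 0.190% in Matrigel-only and 0.0906% in Palo. Without thinning the shares were 29.1% in Vehicle, 0.671% in Matrigel-only and 0.422% in Palo. Macrophage-marker cells (at least 0.5% of UMIs from the 7 macrophage markers and under 0.2% from the stromal genes) should lack the receptor. Thinning left 2079, 1328 and 2891 of them in Matrigel-only, Vehicle and Palo, as cells under 3000 UMIs were dropped. Their thinned share was 0.0134% in Matrigel-only, 0.195% in Vehicle but 0 in Palo (0 of 2891 cells, where a limit of 3 counts is 0.104%). The median depths of all macrophage-marker cells, before any were dropped, were 2944, 3774 and 3879 UMIs. The intervals of the Matrigel-only and Palo stromal shares overlapped those of this background, and the Vehicle share lay far above it.

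The upstream sequence of *Fgfr3* is shown with those of *Fgfrl1*, which was high in the same cells, and of *Fgf18*, which was nearly absent from them. The sequences are from RefSeq for GRCm38.p6, each the stretch before an annotated start that holds no exon, written 5′ to 3′ on the gene's strand. Capitals mark GC boxes (GGGCGG, or CCGCCC where the motif lies on the other strand) and, in *Fgfr3*, the SMAD1/5 element GGCGCC, which directly follows a GC box there. *Fgfr3* has another annotated start, whose upstream stretch (chr5:33722056-33722305) also holds GGCGCC and GC boxes and is not printed. The printed stretch of *Fgfr3* is at chr5:33721474-33721673 (plus strand), that of *Fgfrl1* at chr5:108693979-108694228 (plus strand) and that of *Fgf18* at chr11:33147401-33147650 (minus strand). The *Fgfrl1* stretch lies inside the annotated interval of its gene, before an internal start, as does the unprinted stretch of *Fgfr3*.
Fgfr3: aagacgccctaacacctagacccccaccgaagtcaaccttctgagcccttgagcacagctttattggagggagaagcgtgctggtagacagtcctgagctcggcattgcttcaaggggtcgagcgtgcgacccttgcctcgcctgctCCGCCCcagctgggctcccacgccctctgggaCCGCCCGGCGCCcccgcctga
Fgfrl1: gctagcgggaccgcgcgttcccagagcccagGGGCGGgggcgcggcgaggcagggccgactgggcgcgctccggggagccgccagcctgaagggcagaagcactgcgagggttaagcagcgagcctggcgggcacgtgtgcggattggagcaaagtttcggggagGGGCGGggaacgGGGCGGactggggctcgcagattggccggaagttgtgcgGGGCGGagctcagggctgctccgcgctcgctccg
Fgf18: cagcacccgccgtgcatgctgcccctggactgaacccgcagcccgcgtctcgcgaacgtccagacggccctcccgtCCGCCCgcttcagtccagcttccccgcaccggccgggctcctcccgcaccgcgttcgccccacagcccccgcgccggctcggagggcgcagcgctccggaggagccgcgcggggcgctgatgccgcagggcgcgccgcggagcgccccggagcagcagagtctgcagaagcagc

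Both strands of the 250 bases before the start of all 32851 RefSeq promoters were searched for 5 motifs. GGCGCC was present in 9.59% of all promoters and, among the 8 members with a RefSeq entry, in those of *Fgf2* and *Fgfr3*. GGGCGG was present in 32.7% of all promoters and in those of *Fgf2*, *Fgf10*, *Fgf18*, *Fgfr3*, *Fgfr4* and *Fgfrl1*. The SOX core AACAAT, present in 9.42% of promoters, was in no member's, and the other SOX core ACAAAG (16.5%) and the nuclear receptor half-site AGGTCA (14%) were each in that of *Fgf7* alone. *Fgfr1* had no entry. These are matches of letters in a short window, and the GC box is common to members that were high and members that were low in Acan+ cells.

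*Fgfrl1* (ENSMUSG00000008090, plus strand, chr5:108692382-108706924) encodes the receptor without a kinase domain. It stood at 15.1 CPM (303 UMIs) in Matrigel-only, 94.99 CPM (2241 UMIs) in Vehicle and 14.0 CPM (222 UMIs) in Palo stromal cells. Vehicle was high, and the other libraries differed by less than counting error (ratio of Palo to Matrigel-only 0.928, 0.777 to 1.11). The ratio of Vehicle to Matrigel-only was 6.29 (5.57 to 7.11) and to Palo 6.77 (5.90 to 7.81). Acan+ cells at 143 CPM (136 to 149) held 1986 of the 2241 Vehicle UMIs. Unlike *Fgfr3*, *Fgfrl1* was readily counted without BMP2: Sox9+ cells had 27.6 CPM in Matrigel-only, 31.1 CPM in Vehicle and 15.0 CPM in Palo. Vehicle and Matrigel-only Sox9+ cells differed by less than counting error (ratio 1.13, 0.916 to 1.39), and Vehicle Sox9+ cells exceeded those of Palo 2.07-fold (1.61 to 2.67). Palo Sox9+ cells were at 0.545 of those of Matrigel-only (0.417 to 0.709). Without Acan+ cells the Vehicle excess was 1.74-fold over Matrigel-only and 1.90-fold over Palo. The thinned share of stromal cells with a UMI was 4.31%, 21.9% and 4.29% in Matrigel-only, Vehicle and Palo (11.5%, 52.9% and 14.9% unthinned), against 0.588%, 0.770% and 0.667% of macrophage-marker cells.

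*Fgfr2* (ENSMUSG00000030849, minus strand) encodes the receptor of condensing mesenchyme and, in its other splice form, of epithelia. It was at 3.44 CPM (69 UMIs) in Matrigel-only, 14.3 CPM (338 UMIs) in Vehicle and 3.16 CPM (50 UMIs) in Palo. Vehicle was 4.16-fold (3.21 to 5.48) above Matrigel-only and 4.54-fold (3.36 to 6.23) above Palo, and the latter libraries overlapped. The excess lay in the Acan+ cells: they stood at 21.1 CPM (18.8 to 23.7), 4.19-fold (2.96 to 6.10) above the Vehicle Sox9+ cells, and Sox9+ cells had 7.59, 5.04 and 5.07 CPM in Matrigel-only, Vehicle and Palo with overlapping intervals. Without Acan+ cells the ratio to Matrigel-only was 1.32 (0.884 to 1.96). The thinned shares were 1.03%, 4.23% and 1.09% (2.83%, 16.6% and 4.14% unthinned), and in macrophage-marker cells at most 0.0216%. The annotated interval of *Fgfr2* (chr7:130162451-133123350) runs over 36 other genes on its strand, so its counts are less certain than the others. Counts at the 3′ end do not separate the splice forms of the receptors.

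*Fgfr1* (ENSMUSG00000031565, plus strand, chr8:25513654-25575718), the receptor of loose mesenchyme, had the most UMIs of the family in each library. It was at 273 CPM (265 to 280) in Matrigel-only, 173 CPM (168 to 179) in Vehicle and 226 CPM (219 to 234) in Palo. The intervals did not overlap, and Vehicle was lowest, but no difference reached 2-fold: the log2 ratio of Vehicle was -0.65 to Matrigel-only and -0.38 to Palo. Among classes of at least 50 cells *Fgfr1* was highest in Pi16+ cells, at 307, 258 and 303 CPM in Matrigel-only, Vehicle and Palo, and in Vehicle it was lowest in Acan+ cells, at 152 CPM (146 to 159). After thinning, 55.7%, 39.6% and 49.4% of stromal cells had a UMI (83.2%, 84.2% and 87.9% unthinned). The unthinned shares, taken at unequal depths, did not show the order of the levels.

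*Fgfr1* was the 1 member to reach 5 CPM in macrophage-marker cells. These cells had 126 CPM (1821 UMIs) in Matrigel-only, 39.9 CPM (354 UMIs) in Vehicle and 73.2 CPM (1237 UMIs) in Palo. Of those with at least 3000 UMIs, 30.4%, 9.09% and 15.8% had a UMI of *Fgfr1* after thinning. The order of the libraries was the same as in stromal cells, with a wider spread: Matrigel-only exceeded Vehicle 3.17-fold (2.83 to 3.56), and *Fgfr1*, the 1 member counted in these cells, was called lower in Vehicle, against 4.53% of all genes called. In Matrigel-only, Vehicle and Palo the macrophage-marker cells held 17, 19 and 12 UMIs of *Fgf2* beside 1821, 354 and 1237 of *Fgfr1*. Stromal cells held 1006, 374 and 421 of *Fgf2* beside 5465, 4092 and 3585 of *Fgfr1*. The part of stromal RNA in the *Fgfr1* UMIs of macrophage-marker cells was not tested. The macrophage markers in stromal cells (470, 143 and 319 CPM in Matrigel-only, Vehicle and Palo) had the same order of libraries as *Fgfr1* and the ligands *Fgf2*, *Fgf7* and *Fgf18*. With the 65, 8 and 24 stromal cells left out in which these markers made up at least 0.5% of UMIs, the log2 ratio of Vehicle to Matrigel-only with 5 CPM added went from -0.64 to -0.65 for *Fgfr1*, from -1.40 to -1.41 for *Fgf2* and from -1.59 to -1.62 for *Fgf18*.

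*Fgfr4* (ENSMUSG00000005320, plus strand, chr13:55152640-55168759), a receptor best known from liver and muscle, had 0 UMIs in Matrigel-only, 35 UMIs (1.48 CPM) in Vehicle and 5 UMIs (0.316 CPM) in Palo. A limit of 3 counts, set in place of the 0, is 0.150 CPM in Matrigel-only. Against the limit of 3 counts, Vehicle was at least 9.91-fold higher than Matrigel-only, with the Vehicle count taken as exact, and the 95% counting interval of the ratio began at 7.65-fold. Of the 35 UMIs, 30 were in Acan+ cells (2.15 CPM, 1.45 to 3.08). The muscle markers summed to 13.9 CPM in the Vehicle Acan+ cells and to 50.4 CPM in the triple-negative cells, which held 3 UMIs of *Fgfr4*. The part of muscle RNA in these UMIs was not tested. The gene stayed under 5 CPM everywhere and was not counted in any comparison of stromal cells.

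The make-up of the receptor kinases differed in Vehicle. *Fgfr1* gave 98.5% (98.1 to 98.8) of the 5549 UMIs of *Fgfr1* to *Fgfr4* in Matrigel-only stromal cells, 74.5% (73.4 to 75.7) of 5490 in Vehicle and 98.4% (97.9 to 98.7) of 3645 in Palo. *Fgfr3* made up 0.270%, 18.7% and 0.137%. The 4 kinases together were at 277 CPM (270 to 284) in Matrigel-only, 233 CPM (227 to 239) in Vehicle and 230.2 CPM (223 to 238) in Palo, so that their summed level was not higher in Vehicle than in Matrigel-only. In Acan+ cells *Fgfr1* gave 62.7% (61.0 to 64.3) and *Fgfr3* 27.8% (26.3 to 29.3), with 8.68% from *Fgfr2* and 0.885% from *Fgfr4*. Among Sox9+ cells the *Fgfr3* share was 0.707% in Matrigel-only, 4.82% in Vehicle but 0.148% in Palo. These are shares of captured molecules, and capture may differ between the genes.

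**Figure D3:**
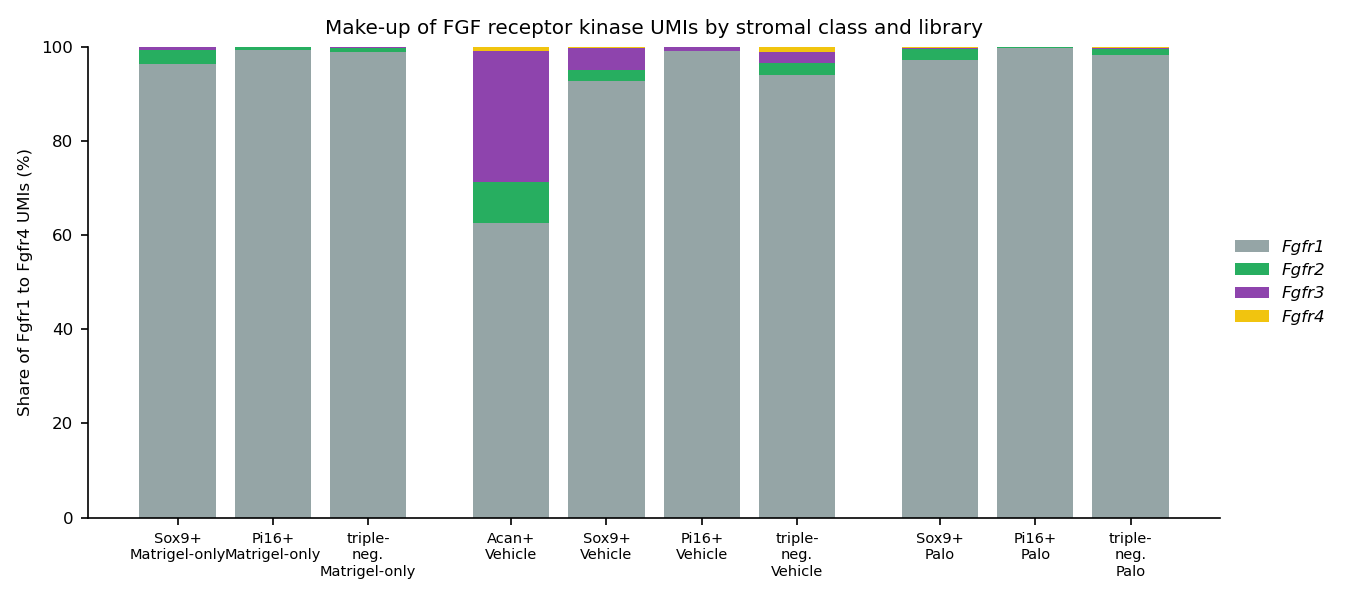
Share of the UMIs of *Fgfr1* to *Fgfr4* that each receptor gave (percent, stacked bars from 0 to 100) in each stromal class of at least 50 cells, by library. *Fgfr1* gave 92.7% or more in each class except the Vehicle Acan+ cells, where it gave 62.7% and *Fgfr3* 27.8%.

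Within the Vehicle library the receptors were graded with the number of *Acan* UMIs in a cell. *Fgfr3* was at 8.69, 11.1, 19.3, 55.2 and 119 CPM in cells with 0, 1, 2 to 9, 10 to 49 and 50 or more *Acan* UMIs (594, 83, 114, 361 and 221 cells). *Fgfrl1* ran from 26.4 CPM through 28.2, 61.5 and 137 to 216 CPM. *Fgfr2* had a different course, at 4.55 and 7.21 CPM in the lowest bins, 21.1 CPM (14.8 to 29.2) at 2 to 9 *Acan* UMIs, and 24.7 and 21.1 CPM above, so that it was near its highest level in cells where *Fgfr3* and *Fgfrl1* were far below theirs. *Fgfr1* went from 204 CPM (195 to 213) down to 128 CPM (118 to 139). In the highest bin *Fgfrl1* had more UMIs than *Fgfr1* (1021 against 605), and *Fgfr3* nearly as many (562). The bins were not of equal depth, with median UMIs from 14618 to 21013, and the order of their medians was not that of the *Acan* counts.

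**Figure D4:**
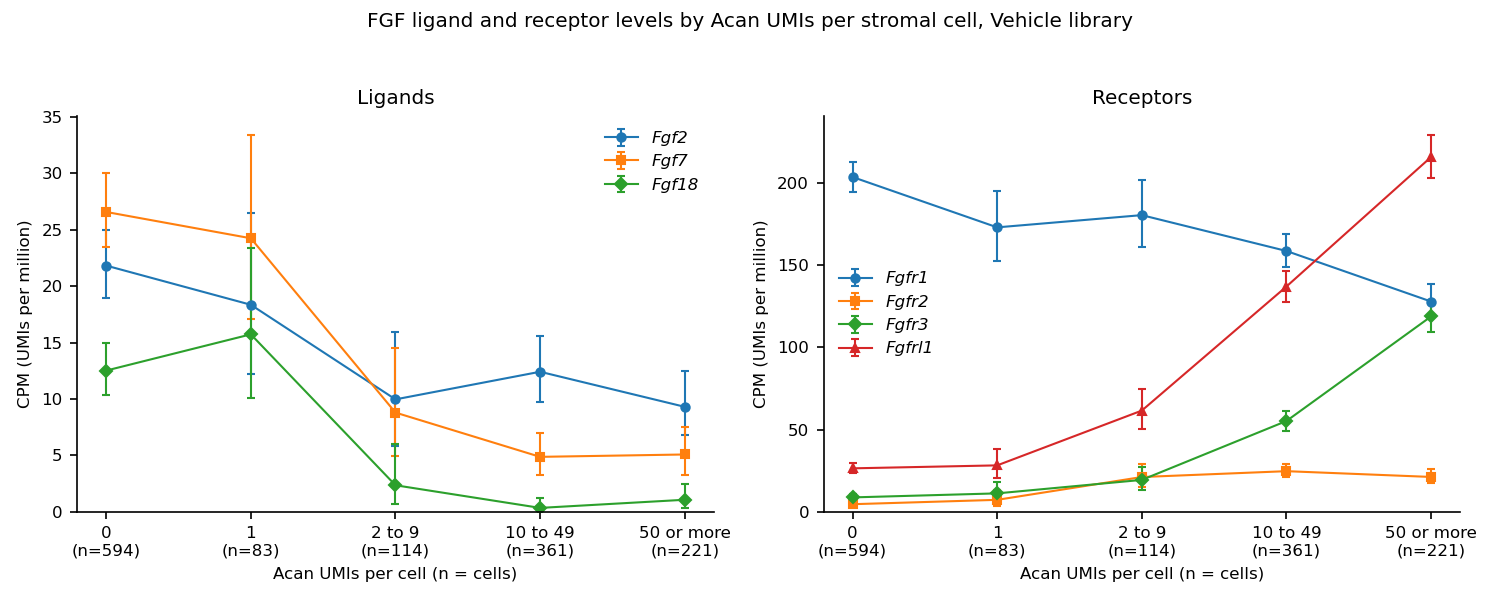
Level (CPM, linear axes from 0) of 3 ligands (left) and 4 receptors (right) in Vehicle stromal cells by *Acan* UMIs per cell. Points are sums over the cells of a bin and bars are exact Poisson 95% intervals. *Fgfr3* and *Fgfrl1* stood at 119 and 216 CPM in the highest bin, while *Fgf18* was at 1.06 CPM there.

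A split of the Acan+ cells by *Col2a1*, the type II collagen of cartilage, gave the same order. The 407 Col2a1+ cells exceeded the 372 without it 3.82-fold (3.24 to 4.52) for *Fgfr3*, 2.23-fold (2.02 to 2.46) for *Fgfrl1* and 1.61-fold (1.26 to 2.07) for *Fgfr2*, and *Fgfr1* was lower in them (ratio 0.797, 0.731 to 0.869). Of the 6 members counted, *Fgfr3* and *Fgfrl1* were called higher, against 2.16% of all genes called. *Fgf18* had 4 UMIs in Col2a1+ cells and 31 in the others.

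Single Acan+ cells often carried more than 1 receptor. *Fgfr3* and *Fgfrl1* were detected together in 304 of 779 cells (39.0%, 35.6 to 42.6), where the product of their shares was 31.6%, and 89.1% of the cells with *Fgfr3* had *Fgfrl1*. *Fgfr3* and *Fgfr1* were together in 34.7%, near the 36.2% given by the product, and 79.2% of the cells with *Fgfr3* also had *Fgfr1*. *Fgfr2* and *Fgfr3* shared 13.4% of cells against a product of 10.8%. Cells of unequal depth enter these shares, and the part of depth in them was not tested.

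Among the ligands, *Fgf2* (ENSMUSG00000037225, plus strand, chr3:37348346-37410108), a broadly acting FGF held in the matrix, was at 50.2 CPM (47.1 to 53.4, 1006 UMIs) in Matrigel-only, 15.9 CPM (14.3 to 17.5, 374 UMIs) in Vehicle and 26.6 CPM (24.1 to 29.3, 421 UMIs) in Palo. The intervals did not overlap. Over all stromal cells Vehicle was 3.17-fold (2.81 to 3.57) below Matrigel-only and 1.68-fold (1.46 to 1.93) below Palo. *Fgf2* was highest in the Pi16+ cells, which stood at 86.8, 50.0 and 71.3 CPM in Matrigel-only, Vehicle and Palo against 32.2, 18.5 and 18.0 CPM in Sox9+ cells. In Sox9+ over Pi16+ cells, 1 member was called higher and 1 lower of 7 in Matrigel-only, 3 higher and 3 lower of 8 in Vehicle, and 1 lower of 6 in Palo, against 6.28%, 11% and 5.88% of all genes called. *Fgf2* was the 1 member called in each of the 3 libraries, at log2 ratios of -1.43, -1.44 and -1.99, where 2.87% of all genes were called in all 3. Within Pi16+ cells Vehicle was at 0.576 of Matrigel-only (0.421 to 0.772), a smaller difference than over all stromal cells, and at 0.702 of Palo (0.504 to 0.961). Within Sox9+ cells Vehicle was at 0.573 of Matrigel-only (0.455 to 0.720) and at 1.03 of Palo (0.792 to 1.34). Triple-negative cells had 16.6, 19.8 and 12.1 CPM in Matrigel-only, Vehicle and Palo. There Vehicle was at 1.19 of Matrigel-only (0.767 to 1.79) and higher than Palo, at 1.63 (1.04 to 2.50). The Pi16+ cells made up 48.5%, 5.83% and 26.4% of the stromal cells of Matrigel-only, Vehicle and Palo. *Pi16* itself was detected in 55.3%, 12.2% and 31.1%, as cells that also had *Sox9* or *Acan* fell into the other classes. *Nudt6* overlaps *Fgf2* on the other strand.

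*Fgf18* (ENSMUSG00000057967, minus strand, chr11:33117430-33147400), the growth plate ligand, was at 30.1 CPM (603 UMIs) in Matrigel-only, 6.61 CPM (156 UMIs) in Vehicle and 15.3 CPM (243 UMIs) in Palo. Vehicle was lowest, 4.55-fold (3.81 to 5.46) below Matrigel-only and 2.32-fold (1.89 to 2.86) below Palo. In Vehicle it was at 34.4 CPM in Pi16+, 15.3 CPM in triple-negative, 8.96 CPM in Sox9+ and 2.51 CPM in Acan+ cells. By *Acan* count it went from 12.5 CPM in cells without *Acan* to 0.335 and 1.06 CPM in the highest bins, the opposite course to *Fgfr3*. In Pi16+ cells the libraries split otherwise: Matrigel-only at 41.5 CPM (37.2 to 46.1) and Vehicle at 34.4 CPM (23.7 to 48.3) overlapped, and Palo was lower at 17.1 CPM (12.9 to 22.2). There *Fgf18* was the 1 member of 5 called in Palo over Matrigel-only, at a ratio of 0.411 (0.304 to 0.547), against 1.21% of all genes called. In Vehicle over Matrigel-only 0 of 6 were called in Pi16+ cells, against 3.21% of all genes.

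*Fgf7* (ENSMUSG00000027208, plus strand, chr2:126034658-126091185), the keratinocyte growth factor made by fibroblasts, was at 31.9 CPM (639 UMIs) in Matrigel-only, 15.3 CPM (362 UMIs) in Vehicle and 22.8 CPM (361 UMIs) in Palo. Vehicle was 2.08-fold (1.82 to 2.37) below Matrigel-only and was not called once 5 CPM was added. Its class pattern differed by library. In Matrigel-only it was highest in Sox9+ cells, at 51.9 CPM (46.2 to 58.1) against 25.9 CPM in Pi16+ cells. In Vehicle it was at 46.9 CPM (34.2 to 62.8) in Pi16+ and 35.7 CPM in triple-negative cells, which differed by less than counting error (ratio 1.31, 0.867 to 1.98), against 21.9 CPM in Sox9+ and 7.54 CPM in Acan+ cells. In Palo the Sox9+ and Pi16+ cells overlapped at 26.3 and 31.7 CPM. Between libraries, *Fgf7* was higher in Vehicle than in Matrigel-only within Pi16+ cells (1.81-fold, 1.28 to 2.51) and within triple-negative cells (1.73-fold, 1.24 to 2.39), and lower within Sox9+ cells. In triple-negative cells it was the 1 member of 6 called in Vehicle over Palo, higher at 2.36-fold (1.67 to 3.32), against 6.66% of all genes called. *Fgf7* was called lower in Acan+ than in Sox9+ cells of Vehicle, beside *Fgfr2*, *Fgfr3* and *Fgfrl1* called higher among the 7 members counted, against 3.34% of all genes. *Fam227b* overlaps *Fgf7* on the other strand.

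*Fgf10* (ENSMUSG00000021732, plus strand, chr13:118669791-118792115), the mesenchymal ligand of the limb bud, had 108 UMIs (5.39 CPM, 4.42 to 6.504) in Matrigel-only, 26 (1.10 CPM, 0.720 to 1.61) in Vehicle and 26 (1.64 CPM, 1.07 to 2.41) in Palo. Over all stromal cells both BMP2 libraries were lower than Matrigel-only, 4.89-fold (3.16 to 7.82) and 3.28-fold (2.12 to 5.25), and they overlapped each other. At these levels the ratio with 5 CPM added did not reach 2-fold. Of the 26 Vehicle UMIs, 12 were in the 80 Pi16+ cells (12.5 CPM, 6.46 to 21.9) and 3 in the 779 Acan+ cells. The Matrigel-only Pi16+ cells had 32 UMIs (3.86 CPM), so within this class Vehicle was higher, 3.24-fold (1.52 to 6.47), and was not called once 5 CPM was added. In Pi16+ cells *Fgf10* was the 1 member of 6 called in Vehicle over Palo (12 and 7 UMIs), against 3.48% of all genes called.

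After thinning, a UMI of *Fgf2* was found in 14.8%, 4.97% and 8.30% of Matrigel-only, Vehicle and Palo stromal cells, of *Fgf7* in 9.55%, 4.20% and 6.97%, of *Fgf18* in 8.63%, 1.77% and 4.48% and of *Fgf10* in 1.73%, 0.425% and 0.611%. The unthinned shares were 30.8%, 18.9% and 23.4% for *Fgf2*, 21.1%, 15.8% and 22.6% for *Fgf7*, 21.1%, 5.24% and 15.9% for *Fgf18* and 3.79%, 1.46% and 1.94% for *Fgf10*. Macrophage-marker cells had thinned shares of at most 0.555% for *Fgf2*, 0.275% for *Fgf7*, 0.127% for *Fgf18* and 0.0246% for *Fgf10*. The stromal shares lay above that background in each library, with intervals apart except for *Fgf10* in Vehicle (0.148 to 0.9505% against an upper bound of 0.277%). Stromal cells held 94.2% to 97.5% of the *Fgf2* UMIs of all passing cells, 94.8% to 97.1% of those of *Fgf7*, 93.8% to 98.9% of those of *Fgf18* and 88.5% to 100% of those of *Fgf10*.

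The wider pathway was described by 5 lists. Of 18 other FGF ligands, 2 were counted in Vehicle over Matrigel-only: *Fgf1* was called lower (1.44 against 10.4 CPM), and the intracellular *Fgf11* was not called (15.1 against 6.78 CPM). In Vehicle over Palo *Fgf11* alone was counted and was not called (15.1 against 5.31 CPM). Both were named after their values were seen.

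Co-receptors and carriers held 14 counted genes of 20. In Vehicle over Matrigel-only 2 were higher and 1 lower, and in Vehicle over Palo 3 were higher and 1 lower, where 3.68% of all genes were higher and 7.04% lower over Matrigel-only and 3.73% higher and 4.4% lower over Palo. The list medians were 0.28 and 0.09 (log2, 5 CPM added) against -0.04 and -0.01 over all genes. *Sdc3*, a heparan sulfate proteoglycan of chondrocytes, was at 70.6, 556 and 61.5 CPM in Matrigel-only, Vehicle and Palo, and the glypican *Gpc1* at 24.2, 97.0 and 38.3 CPM. *Sdc4* was called over Palo (242 against 85.5 CPM). The FGFR-binding membrane protein *Flrt2* was lower in Vehicle, at 261, 76.6 and 218 CPM. *Sdc3* and *Gpc1* were still called over both other libraries without Acan+ cells. In Palo over Matrigel-only 0 of 14 were called, against 1.22% of all genes.

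Of the 20 adaptors and kinases that pass the signal on, 19 were counted and 0 were called in any of the 3 library comparisons. The list medians were -0.14, 0.05 and -0.07 for Vehicle over Matrigel-only, Vehicle over Palo and Palo over Matrigel-only. Over all genes 10.7%, 8.14% and 1.22% were called in these comparisons, with medians of -0.04, -0.01 and -0.03. Of 13 heparan sulfate enzymes, *Ext1*, a polymerase of the chains, was lower in Vehicle, at 212, 103 and 219 CPM in Matrigel-only, Vehicle and Palo. *Hpse*, which cuts the chains, was called lower in Vehicle than in Matrigel-only (19.3 against 46.8 CPM). The median of this list was -0.50 over Matrigel-only and -0.52 over Palo, against -0.04 and -0.01 over all genes. Of the counted enzymes, 2 of 12 were lower over Matrigel-only and 1 of 13 over Palo, where 7.04% and 4.4% of all genes were lower. Without Acan+ cells 0 of 12 and 0 of 13 were called, against 7.28% and 5.05% of all genes.

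A list of 21 genes known to be induced downstream of FGF and other MAP kinase signals includes many feedback inhibitors. In Vehicle over Matrigel-only 5 of 18 counted genes were lower, 1 was higher and 12 were not called, with a median of -0.85. In Vehicle over Palo 8 of 17 were lower and 1 higher, with a median of -0.95, and in Palo over Matrigel-only 0 of 18 were called, with a median of -0.03. Over all genes 7.04% were lower in Vehicle than in Matrigel-only and 4.4% lower than in Palo, and 1.22% were called in Palo over Matrigel-only. *Egr1*, an immediate early transcription factor, was at 140, 28.2 and 138 CPM in Matrigel-only, Vehicle and Palo. *Spry2*, an inhibitor of receptor signalling, was at 41.2, 7.76 and 29.9 CPM, the ERK phosphatase gene *Dusp6* at 23.2, 9.58 and 27.7 CPM, and the FGF-responsive factor *Etv4* at 26.0, 12.0 and 30.8 CPM. For each of these, Matrigel-only and Palo were high and Vehicle low. *Fosl1*, an AP-1 subunit, stood the other way, at 19.8, 38.4 and 12.2 CPM, and was the gene called higher than in Palo. The gene called higher than in Matrigel-only was *Ier3*, an immediate early gene, at 429 against 210.4 CPM.

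The lower genes against Matrigel-only were *Egr1*, *Spry2*, *Fos*, *Il17rd* and *Etv5*, the last 2 named after their values were seen. As background, many of these genes answer to other signals as well. Without Acan+ cells, 4 of 18 were still lower and 0 higher against Matrigel-only, and 5 of 17 were lower and 1 higher against Palo. The medians were -0.55 and -0.46 against -0.04 and -0.01 over all genes, of which 7.28% and 5.05% were called in either direction. *Egr1* and *Spry2* were called in both. In Sox9+ over Pi16+ cells, 6 of 20 counted genes of the list were higher in Matrigel-only, 4 of 18 in Vehicle, where 1 was lower, and 4 of 19 in Palo, against 6.28%, 11% and 5.88% of all genes called in either direction. The list medians were 0.64, -0.01 and 0.63, and in Vehicle 9 of the 18 were above 0. *Etv4*, *Fosl1* and *Ccnd1* were called higher in each of the 3 libraries, where 2.87% of all genes were called in all 3. *Etv4* stood at 49.7 against 5.55 CPM in Matrigel-only, 13.9 against 3.13 CPM in Vehicle and 42.7 against 8.22 CPM in Palo. Of these classes, the Pi16+ cells held more *Fgf2* and the Sox9+ cells more *Etv4*. *Fgf7* and *Fgf10* were higher in the Sox9+ cells in Matrigel-only and in the Pi16+ cells in Vehicle. Signalling between the classes was not tested.

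Across the 10 class-by-library units with at least 50 cells, the genes whose levels, as log2 of CPM with 5 CPM added, followed *Fgfr3* most closely among 7760 compared were *L1cam* (Pearson r = 0.99), *Col2a1* (0.99) and *Plxnb1* (0.98). Those closest to *Fgfrl1* were *Naa10*, *P3h2* and *Angpt1*, to *Fgf2* *Adamtsl4*, *Ivd* and *Tubb4a*, and to *Fgfr1* *Rbms3*, *Scn7a* and *Plpp3*. Among the members, *Fgfr3* and *Fgfrl1* had r = 0.93, *Fgfr2* and *Fgfrl1* 0.95, *Fgf2* and *Fgfr1* 0.88 and *Fgf18* and *Fgfrl1* -0.84. The units share 3 libraries and differ in depth, and the Acan+ unit alone lies far from the rest for the first pairs, so these values only describe the levels.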

How the data were processed

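Day 5 masses were profiled by droplet RNA sequencing, with 1 library per condition. Reads had been mapped to mm10 by the authors (Cell Ranger 3.0.2), and the deposited values are UMI counts per barcode and gene, not normalized. Seurat 3 is also listed in the submitters' processing notes. The annotation and strand setting of the counting are not given in the sources used here. Barcodes were filtered at 200 to 6000 genes and at most 5% mitochondrial UMIs. UMIs were summed over cells and scaled to CPM, and shares of cells were computed after thinning to 3000 UMIs by the hypergeometric formula, as the number of cells expected to show a UMI.

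Genes reaching 5 CPM in either group were counted, and a ratio of at least 2-fold with 5 CPM added was called. No test was run, as each condition has 1 library. The 2-fold rule and the ratio intervals were checked on simulated counts, and the thinning formula against random draws of UMIs. All 9 genes were described, and of each pathway list up to 5 called genes with at least 20 CPM. The 3 genes most alike to a member were taken by Pearson correlation among genes with at least 20 CPM. The genes, lists and rules were chosen with earlier results of these data known. Alternatives covered the added CPM, the minimum, TMM factors (edgeR 4.0.16 in R 4.3.3), the cell and stromal limits, the class rule, macrophage-marker cells and depth. Computations used scipy 1.17.1, numpy 2.4.6 and pandas 2.3.3 under Python 3.11.15, and plots matplotlib 3.10.9. Gene positions are those of GENCODE vM21. The authors' clusters, histology and protein data were not analysed here.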

Additional observations from a re-analysis of the deposited data

Results flagged for a closer look

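*Fgf7* and *Fgf10* were picked out because their ratio between Sox9+ and Pi16+ cells pointed in opposite directions in different libraries, with intervals that did not reach equality. For *Fgf7* the log2 ratio of Sox9+ over Pi16+ cells was 1.001 in Matrigel-only (0.74 to 1.26) and -1.10 in Vehicle (-1.59 to -0.59). For *Fgf10* it was 1.07 in Matrigel-only (0.39 to 1.77, 47 and 32 UMIs) and -3.48 in Vehicle (-4.98 to -2.07, 8 and 12 UMIs). In Palo the ratio was -0.27 for *Fgf7* and -0.00 for *Fgf10*, with intervals that included 0. The difference between the libraries was not tested, since each condition is 1 library and the Vehicle Pi16+ class holds 80 cells.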

How the results depend on the processing

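Each count of members past 2-fold was computed again under other choices of processing. The number of members found in at least 1% of stromal cells of some library was recomputed as well. Of all these recomputed counts, 59 stayed within 1.5 times the main value and 6 did not. With the Acan+ cells left out, which was chosen after seeing the data, the count past 2-fold went from 5 to 3 in Vehicle over Matrigel-only (*Fgf2*, *Fgf18* and *Fgfr3*) and from 3 to 1 in Vehicle over Palo (*Fgfr3*). With 1 CPM added in place of 5 CPM, 1 member (*Fgf10*, lower) was called in Palo over Matrigel-only in place of 0. In Sox9+ over Pi16+ cells in all 3 libraries, 2 members (*Fgf2* and *Fgfr2*) in place of 1 were called with 1 CPM added, and 2 also with the 50 most abundant genes left out of the total, and 0 were called after thinning to 3000 UMIs, where the counts were smaller. At a stromal limit of 3%, *Fgfr2* was no longer called in Vehicle over Palo. Of the recomputed values for single members, 774 stayed within a limit and 99 did not, and 0 called ratios changed sign. The limit was the longer arm of the counting interval for a ratio and the interval itself for a share of cells. A ratio with a count of 0 on either side had no limit, and dropping the minimum cannot alter a ratio. The 774 therefore include values that could not move, and they do not measure stability. The share of stromal cells with a UMI reached 1% in some library for 8 members after thinning to 3000 UMIs, and for 9, 7 and 8 members without thinning, at 1000 and at 5000 UMIs. No paired analysis was possible because each condition is 1 library without a replicate number, and for the same reason no replicate could be left out. Depth limits *Fgfr4* and *Fgf10*, which rest on few UMIs, and the Vehicle Pi16+ class of 80 cells.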
